A study of Homo sapiens with 4 samples.

Results

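The genes described here are 9 human genes of kidney identity, chosen by name among the 59050 genes of the count file: the transcription factors PAX2, PAX8, LHX1, EMX2, WT1 and HNF4A, and the proximal tubule genes LRP2, CUBN and AQP1. All 9 were found in the file under these symbols. They were measured in RCC4, an established clear cell renal cell carcinoma (ccRCC) line that lacks functional VHL, and the question was which of them RCC4 cells express and how their levels compared between PML-silenced and control cells. PML encodes the scaffold protein of PML nuclear bodies. RNA came from cells with a doxycycline-inducible hairpin against PML (shPML) or a scrambled hairpin (shCtrl), with 2 libraries for each. Every library, shCtrl included, came from cells that had been infected with lentivirus, selected with puromycin as bulk populations and kept in doxycycline (100 ng/ml) over 96 h before harvest. The 2 libraries of a condition came from separate infections (replicates 1 and 2), and 1 hairpin sequence against PML was used.

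PAX2 and PAX8 are paired-box transcription factors of the nephric lineage. They act from the first stages of kidney development and PAX8 stays on in adult tubule cells, which is why pathologists use it as a marker of renal epithelium and of renal carcinoma. LHX1 and EMX2 act in the early nephric duct and in the ureteric bud and tubules, and WT1 acts in nephron progenitors and later in podocytes, the filtering cells of the glomerulus. HNF4A is a nuclear receptor that drives the mature programme of the proximal tubule, the segment that reabsorbs most of the filtrate and from which ccRCC is thought to arise. LRP2 (megalin) and CUBN (cubilin) are the giant receptors with which this segment takes up filtered protein, and AQP1 is its water channel.

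PAX8 was strongly expressed in RCC4 cells, PAX2 was at a middling level and WT1 was expressed at a low level. HNF4A, LRP2, CUBN and AQP1 stayed below the level taken as expressed. A gene was taken as expressed when it reached 1 CPM (counts relative to the size of the library after TMM scaling, a correction for library composition) in each of the 4 libraries, which 12291 of the 59050 genes did (20.8%). This held for 3 of the 9 members, PAX8, PAX2 and WT1. LHX1, CUBN, AQP1 and EMX2 lay between this level and the floor, and HNF4A and LRP2 had 3 counts or fewer in every library, which was taken as the floor. PAX8 took 88.2% of all reads counted on the 9 genes and PAX2 took 10.4%. Of the genes that define a renal epithelial cell, PAX8 and PAX2 were thus present. Of the proximal tubule members, LRP2 was not detectable beyond 1 read at this depth. AQP1 had at most 9 counts in a library and CUBN at most 57. Other proximal tubule genes, described below, were divided. Of 31 brush border and enzyme genes 14 were expressed and 9 were at the floor, and of 32 transporters 7 were expressed and 9 were at the floor.

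**Figure D1:**
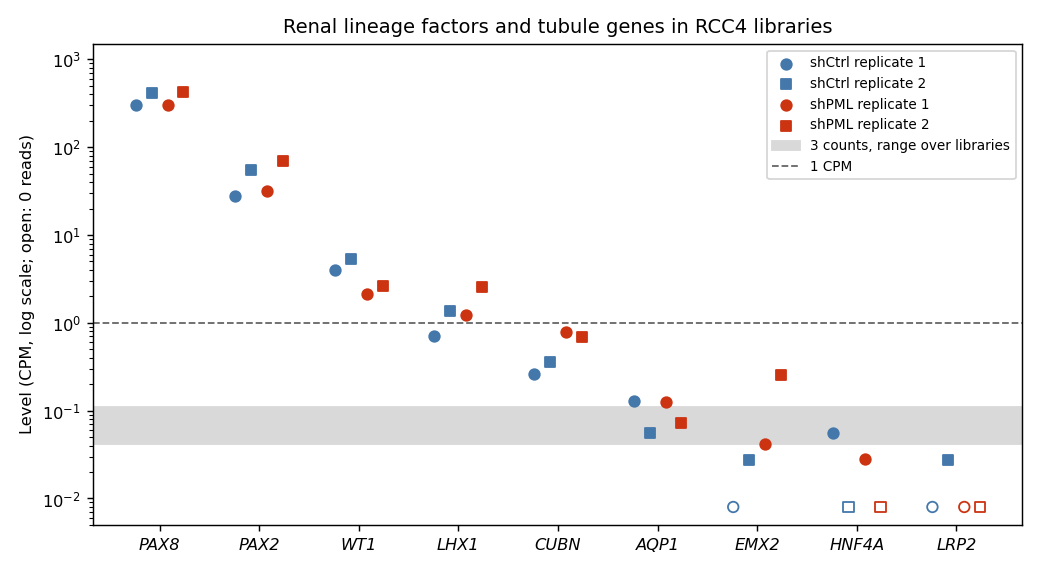
Level of each member in CPM (log axis) in the 4 libraries, ordered by mean level per kilobase, with open symbols for 0 reads, a dashed line at 1 CPM and a grey band for the CPM that 3 counts stand for. PAX8 lies between 301.5 and 426 CPM and PAX2 between 27.8 and 69.5 CPM, while LRP2 has a single read in a single library.

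The libraries held from 27781193 to 69870617 counted reads. PML itself was at 93.1 and 136 CPM in shCtrl replicates 1 and 2 and at 54.8 and 87.5 CPM in shPML. Both shPML libraries were thus below both shCtrl libraries, which also held for 24.9% of all genes tested. By the quasi-likelihood test of edgeR, adjusted after Benjamini and Hochberg over the 16516 genes tested, PML had a log2 fold change of -0.69 with a standard error of 0.30 (adjusted p = 0.32). A fit that took the experiment as a block gave -0.70 (edgeR adjusted p = 4.2e-07). Without shPML replicate 2 the unblocked estimate was -1.06. The log2 ratio of shPML to shCtrl was -0.76 within replicate 1 and -0.64 within replicate 2. Over all settings the adjusted p of PML ran from 4.1e-07 to 0.834.

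The library labelled shPML replicate 2 stood apart in its content. It held reads of monocyte and macrophage genes that the other 3 libraries nearly lacked, a list of 12 markers that was chosen after the values had been seen. All 12 were highest there, at 6.03 to 85.3 CPM, and none passed 1.19 CPM in another library. LYZ, which encodes lysozyme, had 2349 counts there and 4, 1 and 3 in shCtrl replicate 1, shCtrl replicate 2 and shPML replicate 1, and CD14 had 1177 against 2, 4 and 3. The summed level of the 12 markers was 325 CPM in this library and 0.976 to 2.39 CPM in the others. In all, 82 genes were over 5 CPM in this library and over 15 times the highest other library (plus 0.05 CPM), and 0 genes were so in any of the others. The part of these reads in the results was not tested. Values without this library are given for some of the named genes that they move, and not for all. They come from the fit without the block, so the difference between the experiments enters them too.

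Promoter sequences are shown for 3 members that stand for the main patterns: PAX8, high and level between conditions, WT1, low and called with the block, and LRP2, with a single read. Each is the 250 bases before the start of the gene in RefSeq (GRCh38.p14), read 5′ to 3′ on the strand of the gene, with CG dinucleotides, the sites of DNA methylation, in capitals. The windows are chr2:113278922-113279171 for PAX8, chr11:32435540-32435789 for WT1 and chr2:169362535-169362784 for LRP2, all on the minus strand. The RefSeq start is the same as the first base in the count file for PAX8 and LRP2, and lies 346 bases inside it for WT1.
PAX8: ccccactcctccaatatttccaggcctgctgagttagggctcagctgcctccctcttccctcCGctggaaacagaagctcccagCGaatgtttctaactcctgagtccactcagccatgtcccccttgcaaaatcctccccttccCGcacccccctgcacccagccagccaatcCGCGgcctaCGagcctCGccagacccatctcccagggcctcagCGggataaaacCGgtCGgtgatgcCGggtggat
WT1: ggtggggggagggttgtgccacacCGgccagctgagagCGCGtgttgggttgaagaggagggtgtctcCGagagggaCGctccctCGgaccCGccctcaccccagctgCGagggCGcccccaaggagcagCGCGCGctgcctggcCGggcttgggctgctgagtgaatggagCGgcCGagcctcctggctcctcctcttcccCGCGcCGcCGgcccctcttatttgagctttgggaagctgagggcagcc
LRP2: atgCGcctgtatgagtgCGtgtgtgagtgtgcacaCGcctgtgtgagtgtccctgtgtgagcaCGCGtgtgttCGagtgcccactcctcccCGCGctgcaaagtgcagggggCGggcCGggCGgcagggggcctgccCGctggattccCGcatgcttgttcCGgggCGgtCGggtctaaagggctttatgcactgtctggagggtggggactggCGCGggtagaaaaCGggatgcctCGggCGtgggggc
The window of LRP2 held 21 CG dinucleotides, that of WT1 19 and that of PAX8 11, and 30.2%, 34.6% and 50.3% of the 35116 promoters of the table held at least as many. Among the 8 members with a promoter in the table, LRP2 had the most CG dinucleotides and CUBN, at 1, the fewest.

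PAX8 was the most abundant member, and its means in the 2 conditions, 359.7 ± 75.2 CPM in shCtrl and 363.8 ± 88.0 CPM in shPML (SD, n = 2), differed by less than the spread within either. It lies on chromosome 2 of GRCh38 from 113215997 to 113278921, on the minus strand. Its level was 306.5 CPM in shCtrl replicate 1, 413 in shCtrl replicate 2, 301.5 in shPML replicate 1 and 426 in shPML replicate 2. The 2 conditions overlapped, and the libraries of replicate 2 were above those of replicate 1. Per length, PAX8 had a mean of 86.0 RPKM (CPM per kilobase of exon), which was higher than 94.8% of the expressed genes and placed it at 639 of 12291. PAX8 had a log2 fold change of 0.02 (standard error 0.25, 95% interval -0.60 to 0.64, adjusted p = 0.98 from edgeR). In the blocked fit the interval was -0.18 to 0.20, so that a change of the size of the 0.5 threshold lay outside it. In bulk RNA, fewer cells that express a gene and less RNA of it per cell cannot be told apart.

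PAX2 came next in level among the members, and its level followed the experiment more than the hairpin. It was counted on chromosome 10 from 100745711 to 100829941, on the plus strand. PAX2 was at 27.8 CPM in shCtrl replicate 1, 55.2 in shCtrl replicate 2, 31.6 in shPML replicate 1 and 69.5 in shPML replicate 2. Replicate 2 was therefore 1.99-fold above replicate 1 in shCtrl and 2.20-fold above it in shPML. Within each experiment shPML was slightly above shCtrl, 1.14-fold in replicate 1 and 1.26-fold in replicate 2, and the conditions overlapped when the experiments were pooled. The log2 fold change was 0.28 (standard error 0.48, 95% interval -0.91 to 1.48, adjusted p = 0.84 from edgeR) and did not pass the test. Blocked by experiment it was 0.26 (95% interval 0.02 to 0.50, adjusted p = 0.094 from edgeR). Without shPML replicate 2 the unblocked estimate was -0.39, and without shCtrl replicate 1 it was -0.12. Per length PAX8 was 7.87 times PAX2, whose mean of 10.9 RPKM was above 58.2% of the expressed genes.

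WT1 was low and was the member that differed most evenly between the conditions. It lies on chromosome 11 from 32387775 to 32435885, on the minus strand, and encodes a zinc finger transcription factor. WT1 had 218 and 193 counts in shCtrl replicates 1 and 2 and 151 and 73 in shPML, which stand for 4.03, 5.36, 2.11 and 2.65 CPM. Both shPML libraries were below both shCtrl libraries, which held for 24.9% of all genes tested, and the conditions did not overlap in either direction for 48.0%. The ratio of shPML to shCtrl was 0.523 in replicate 1 and 0.495 in replicate 2. On the log2 scale these were -0.94 (95% counting interval -1.24 to -0.63) and -1.02 (-1.43 to -0.62), exact binomial intervals that cover counting error only. The estimate of edgeR was -0.98 (standard error 0.32, unadjusted p = 0.026, adjusted p = 0.21), so WT1 was not called without the block. In the blocked fit WT1 fell in shPML, by 0.97 on the log2 scale (standard error 0.30, adjusted p = 0.0093 from edgeR). DESeq2 with the same block gave an adjusted p of 0.069, and over all settings it ran from 0.0093 to 0.784 while the log2 fold change stayed between -1.16 and -0.77. Its mean of 0.907 RPKM was above 7.11% of the expressed genes, and PAX8 was 94.8 times higher per length.

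LHX1 and EMX2, the other developmental factors, had few reads. LHX1, on chromosome 17 from 36937475 to 36944612, had 38 and 49 counts in shCtrl replicates 1 and 2 and 88 and 71 in shPML. This was 0.702, 1.36, 1.23 and 2.58 CPM, and the conditions overlapped. The shPML library was above its shCtrl partner in each experiment, 1.75-fold in replicate 1 and 1.90-fold in replicate 2. The log2 fold change of 0.88 had a 95% interval from -0.61 to 2.37 (adjusted p = 0.53 from edgeR) and did not pass, also not with the block (0.86, adjusted p = 0.15 from edgeR). Leaving out shPML replicate 2 brought it to 0.26, and leaving out shCtrl replicate 2 to 1.42. EMX2, on chromosome 10 from 117542445 to 117549546, had 0 and 1 counts in shCtrl and 3 and 7 in shPML. It was not tested, and no fold is given for so few reads.

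HNF4A, the proximal tubule regulator, was not detected beyond stray reads. It had 3 counts in shCtrl replicate 1, 2 in shPML replicate 1 and 0 in both libraries of replicate 2, over 7206 bases of exon on chromosome 20 from 44355700 to 44434596. A count of 0 allows up to 0.0833 CPM in shCtrl replicate 2 and 0.109 CPM in shPML replicate 2, from 3 counts in each library.

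Of the endocytic receptors and the water channel, LRP2 and AQP1 were likewise near the floor, and CUBN was low. LRP2 had 1 count in shCtrl replicate 2 and 0 in the other 3 libraries, although its exons span 15895 bases on chromosome 2 from 169127109 to 169362534. CUBN, its partner receptor, on chromosome 10 from 16823966 to 17129817, had 14 and 13 counts in shCtrl replicates 1 and 2 and 57 and 19 in shPML. CUBN was thus at 0.259 and 0.361 CPM in shCtrl and at 0.795 and 0.690 CPM in shPML. Both shPML libraries were above both shCtrl libraries, as for 23.0% of all genes tested, but only replicate 1 was beyond counting error, with a log2 ratio of 1.62 (0.76 to 2.58) against 0.93 (-0.16 to 2.07) in replicate 2. Its log2 fold change of 1.27 (standard error 0.62, 95% interval -0.28 to 2.82) did not pass the test, with an adjusted p of 0.37 from edgeR and of 0.18 with the block. AQP1, on chromosome 7 from 30911694 to 30925517, had 7 and 2 counts in shCtrl and 9 and 2 in shPML, and was not tested.

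**Figure D2:**
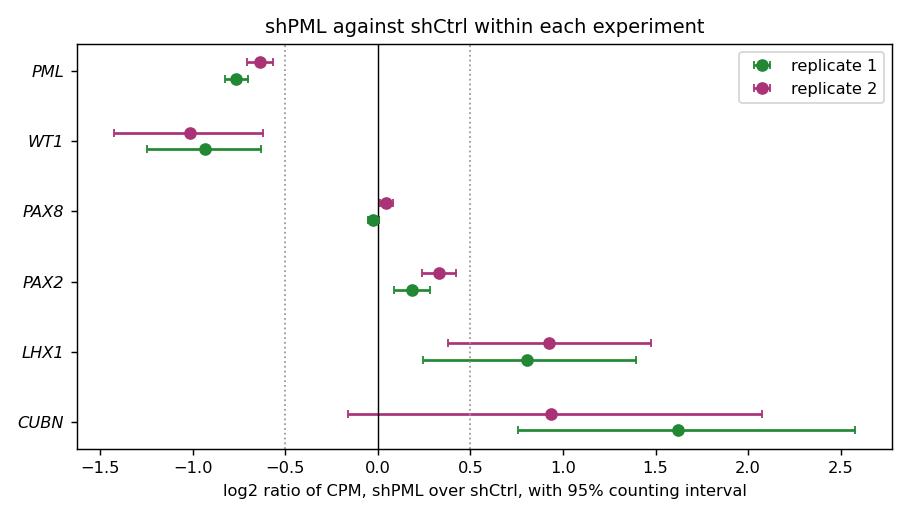
Log2 ratio of shPML to shCtrl in CPM within replicate 1 and within replicate 2 for PML and the 5 members tested, with bars for the 95% counting interval and dotted lines at the 0.5 threshold. WT1 lies at -0.94 and -1.02, PAX8 next to 0, and LHX1 and CUBN to the right with wide intervals.

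Across the 5 members that passed the filter on low counts, 0 were called without the block, against 0.412% of all genes tested (0.0787% higher and 0.333% lower), a call being a log2 fold change beyond 0.5 either way at an adjusted p under 0.05. Of these 5, 1 had an unadjusted p under 0.05 (WT1), and DESeq2 without the block called 0. In the blocked fit 1 of the 5 was called, WT1, against 19.1% of all genes tested (10.5% lower and 8.57% higher), so the share of members called, 20.0%, was close to that of all genes. PAX2, LHX1 and CUBN were above shCtrl in both experiments, WT1 was below it in both, and PAX8 was on either side of it. The other 4 members, HNF4A, EMX2, LRP2 and AQP1, had too few reads to pass the filter.

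Per length, the order of the members was PAX8, PAX2, WT1 and LHX1 in 3 of the 4 libraries. PAX8 ranged from 71.7 to 101 RPKM, PAX2 from 6.60 to 16.5, WT1 from 0.540 to 1.38 and LHX1 from 0.205 to 0.753. PAX8 and PAX2 were separate from each other and from the rest in every library, whereas WT1 and LHX1 overlapped, and LHX1 was the higher of these in shPML replicate 2. CUBN, AQP1 and EMX2, at most 0.0878 RPKM, changed places between libraries and could not be ordered.

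The surrounding kidney programme was read from gene lists written from general knowledge. Calls in these lists, with or without the block, are from edgeR unless DESeq2 is named. Of all genes tested, edgeR called 19.1% with the block and 0.412% without it. Among 30 other renal lineage transcription factors, 13 were expressed, 7 were low and 10 were at the floor. SALL1, a zinc finger factor of nephron progenitors, was at 8.23 RPKM and TFAP2A at 7.04 RPKM. Of the 18 of these factors tested, 0 were called without the block, and with it 2 were called higher (MAF and TFAP2A), 2 lower (SIX2 and TFCP2L1) and 14 were not called. With the block, MAF had a log2 fold change of 0.69 (adjusted p = 0.024), TFAP2A 0.63 (adjusted p = 8.6e-05) and SIX2, a nephron progenitor factor, -0.76 (adjusted p = 0.039), all from edgeR. DESeq2 with the block did not call MAF (adjusted p = 0.11) or SIX2 (adjusted p = 0.16). Without shPML replicate 2 the unblocked estimate of MAF was 0.31 in place of 0.70, and that of SIX2 -1.37 in place of -0.73. Within replicates 1 and 2 the log2 ratios were 0.65 and 0.74 for MAF and -0.90 and -0.63 for SIX2. TFAP2A was at 17.9 and 29.6 CPM in shCtrl and at 23.1 and 54.7 CPM in shPML, and its unblocked estimate was -0.04 without shPML replicate 2. The log2 ratio of TFAP2A was 0.37 within replicate 1 and 0.89 within replicate 2. TFCP2L1, a factor of the distal nephron, had 53 and 30 counts in shCtrl and 5 and 0 in shPML.

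The machinery that serves megalin and cubilin was mostly present, although LRP2 was at the floor and CUBN was low. Of 13 such genes, 11 were expressed, led by GIPC1 at 109 RPKM, SNX17 at 44.8 RPKM and EHD1 at 17.3 RPKM, adaptor and sorting proteins that many cell types use. AMN, the partner that cubilin needs to reach the surface, had 1 read in all. DAB2, the endocytic adaptor of megalin, was at 35.1 and 31.7 CPM in shCtrl and 19.8 and 19.4 CPM in shPML. DAB2 fell with the block (log2 fold change -0.77, adjusted p = 1.8e-06), as did SNX17 (-0.67, adjusted p = 5.1e-07), both from edgeR. Without the block edgeR called neither, while DESeq2 called both (adjusted p = 0.0073 for DAB2 and 0.025 for SNX17). FCGRT, the receptor that rescues albumin and IgG from degradation, was called higher with the block, but it was at 1.05 CPM in shPML replicate 1 and 8.46 in replicate 2, against 0.979 and 1.00 in shCtrl. Its log2 ratio was 0.10 in replicate 1 (95% counting interval -0.43 to 0.63). Its high level was in shPML replicate 2, the library with the monocyte and macrophage reads, and the part of those reads in it was not tested. The remaining 9 of the 12 tested were not called.

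Proximal tubule transporters were mostly low or silent, with 7 of 32 expressed, 16 low and 9 at the floor. The highest were SLC2A1, a glucose transporter that many tissues use, at 199.5 RPKM, SLC20A1, a broadly used phosphate transporter, at 38.6, and SLC17A3, an organic anion and urate transporter of the apical membrane, at 26.2. Organic anion uptake carriers of the tubule, SLC22A6 and SLC22A8, had 0 reads. Without the block 0 of the 15 tested were called, and with it SLC2A1 (-0.75) and SLC23A1, a vitamin C transporter (-1.59), were lower, and SLC5A2, the glucose transporter SGLT2, (1.31) and SLC7A7 (1.57) were higher. SLC5A2 was low throughout, at 1.33 and 1.22 CPM in shCtrl and 2.12 and 4.83 CPM in shPML, DESeq2 with the block did not call it (adjusted p = 0.0508), and its unblocked estimate was 0.73 without shPML replicate 2 in place of 1.43. SLC7A7 was at 7.04 CPM in shPML replicate 2 and between 0.516 and 0.777 CPM elsewhere, so its call too rested on the library with the monocyte and macrophage reads, and DESeq2 with the block did not make it (adjusted p = 0.092).

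Brush border and metabolic genes of the proximal tubule were divided. Of 31, 14 were expressed, with PDZK1IP1 at 94.1 RPKM, GGT1 at 49.0 and NHERF1, listed as SLC9A3R1, at 47.9 RPKM, while 8 were low and 9 at the floor, among them the gluconeogenic enzymes PCK1 and G6PC1 (listed as G6PC). With the block 2 were called higher, 2 lower and 11 not called, and 0 were called without it. GGT1, gamma-glutamyltransferase, rose from 119 and 120 CPM in shCtrl to 184 and 219 in shPML (log2 fold change 0.75, adjusted p = 2.1e-08 with the block). MIOX, an inositol oxygenase of the kidney, was called higher by edgeR with the block (0.63, adjusted p = 0.0031) and not by DESeq2 with it (adjusted p = 0.0502), and its unblocked estimate was 0.27 without shPML replicate 2 in place of 0.67. DPP4, a brush border peptidase, fell from 104 and 71.9 CPM to 40.4 and 36.5 (-1.18, adjusted p = 2.7e-12 with the block), and PDZK1, a scaffold of apical transporters, had -0.81, all from edgeR. ANPEP, an aminopeptidase of the brush border that myeloid cells also carry, had 9, 8 and 2 counts in shCtrl replicates 1 and 2 and shPML replicate 1 and 947 in shPML replicate 2.

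Genes that mark an injured or dedifferentiated tubule were the most abundant, with 12 of 16 expressed. VIM (vimentin) was at 2312 RPKM, placed 12 among the expressed genes, SPP1 (osteopontin) at 495 and HAVCR1, the kidney injury molecule KIM-1, at 114.5 RPKM. With the block 3 were called higher, ITGB8 (0.76), CLU (0.61) and KRT7 (0.59), and CD24 was lower (-1.19), while 0 of the 12 tested were called without it. The unblocked estimate of KRT7 was 0.32 without shPML replicate 2 in place of 0.62, and that of ITGB8 0.46 in place of 0.76. Within the experiments ITGB8 had similar log2 ratios, 0.72 in replicate 1 and 0.79 in replicate 2. CD24 was at 286 and 379 CPM in shCtrl and 127 and 165 CPM in shPML. Its shPML libraries were both below its shCtrl libraries, as for 24.9% of all genes tested. VIM and HAVCR1 had log2 fold changes of 0.48 and -0.36 with the block, inside the 0.5 threshold.

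Markers of the distal nephron segments were scarce, while some podocyte markers were expressed. Of 24 genes of the loop of Henle, distal tubule and collecting duct, 0 were expressed and 13 were at the floor, and the whole list summed to between 2.08 and 3.45 CPM in a library. Of 10 podocyte markers 4 were expressed (SYNPO at 25.1 RPKM, PODXL at 24.6, NTNG1 at 3.12 and PTPRO), while NPHS1 (nephrin), which defines the cell beside WT1, had 0 reads. Of the 6 tested, 1 was called lower with the block, NTNG1 (-0.80), and 1 higher. Of 14 endothelial, immune and stromal markers, 2 were expressed, COL1A1 (1.81 RPKM) and PDGFRB (0.780 RPKM), and the list summed to 159.5 CPM in shPML replicate 2 and 12.1 to 26.4 CPM in the other libraries. PDGFRB was lower with the block (-1.22), with log2 ratios of -0.50 in replicate 1 and -1.99 in replicate 2. It was at 3.43 and 9.52 CPM in shCtrl replicates 1 and 2 and at 2.43 and 2.40 CPM in shPML, so shCtrl replicate 2 was the high library. Among the relatives of the members, all 7 other PAX genes were at the floor, and 0 of 11 other aquaporins were expressed. AQP9, an aquaporin of leukocytes and liver, had 187 counts in shPML replicate 2 and 3, 0 and 7 in the rest.

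**Figure D3:**
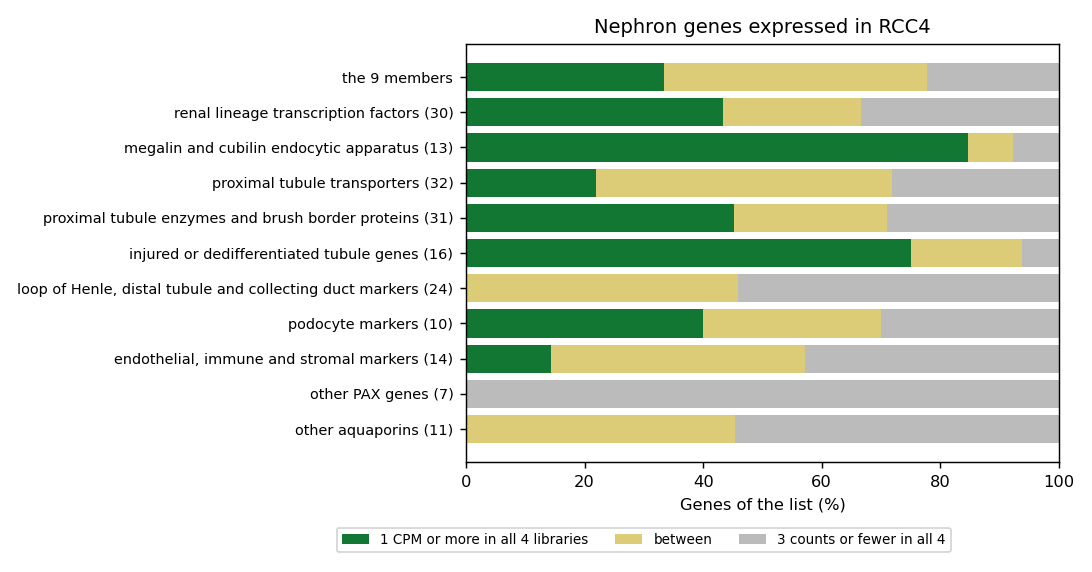
Share of the genes of each list (number in brackets) that reached 1 CPM in all 4 libraries, had 3 counts or fewer in all 4, or lay between. The megalin and cubilin apparatus (11 of 13) and the injury genes (12 of 16) were mostly expressed, the distal markers (0 of 24) and other PAX genes (0 of 7) were not.

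In all, 91 of the 190 genes on these lists were tested. With the block edgeR called 22 of them (24.2%, against 19.1% of all genes tested), and without it 0. DESeq2 without the block called some of the 22, among them CD24 (adjusted p = 0.00026) and DPP4 (adjusted p = 0.00039). In 20 of the 22 the ratio within replicate 1 alone had the same direction and was beyond counting error. FCGRT and SLC7A7 were the others. The blocked fit that made the calls used the same replicate 1 libraries, so this is not an independent check of them. The medians of the list members tested lay between -0.36 for the endothelial, immune and stromal markers and 0.45 for the aquaporins with the block, where 3 genes and 1 gene were tested, against 0.00 for all genes.

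**Figure D4:**
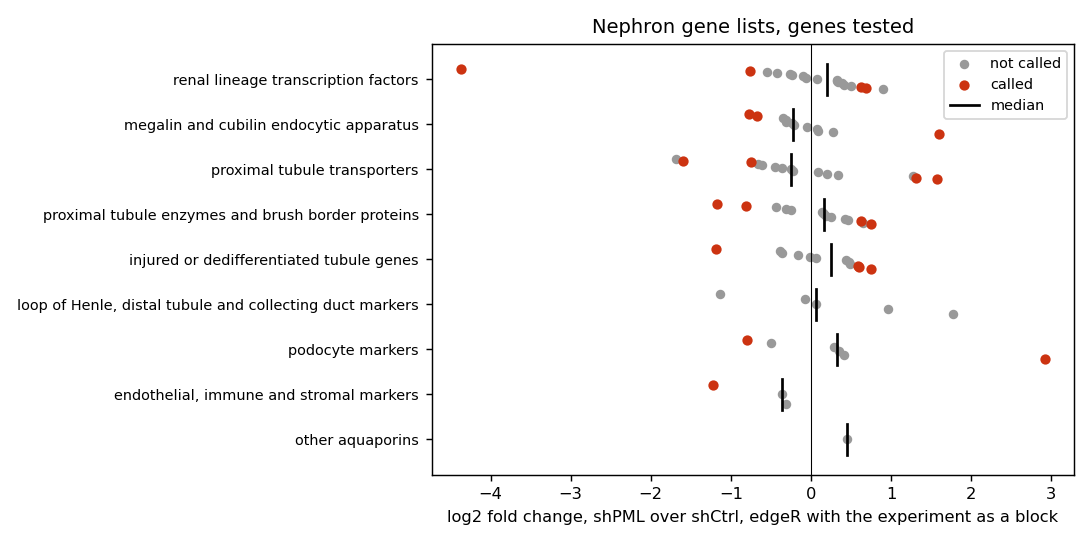
Log2 fold change of shPML over shCtrl from edgeR with the experiment as a block, for every tested gene of each list, with called genes in red and the median of the list as a bar. Called genes lie on both sides of 0 in the list of lineage factors (2 higher, 2 lower) and in the 4 other proximal tubule and injury lists, none in the distal list, and TFCP2L1, with 5 and 0 counts in shPML, is the point at the far left.

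Genes that run alongside a member were found by the root mean square difference of log2 CPM, centred over the 4 libraries, among 10771 or 10772 other genes with a mean of at least 5 CPM. With 4 libraries this describes likeness of pattern and no more. Closest to PAX8 were ITM2B (0.01), DGCR2 (0.01) and NPEPL1 (0.01), and closest to PAX2 were GPSM1 (0.02), EGFL7 (0.02) and NR2F6 (0.02), which was at 33.4 and 67.6 CPM in shCtrl and 37.4 and 85.8 in shPML. TSKU, GPRC5A and PYCR1 (each 0.02) ran alongside WT1, SHISA2 (0.02), COL6A2 (0.06) and SEMA3B (0.09) alongside LHX1, and DCBLD1 (0.11) and LOXL4 (0.12) alongside CUBN.

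Antisense and neighbouring transcripts bear on how the members were counted. PAX8-AS1, on the opposite strand, shares 375 of the 4205 exon bases of PAX8 (8.92%), and WT1-AS shares 329 of the 3897 of WT1 (8.44%). The strand setting of the counting is not given in the sources used here, so reads of an overlap may have been assigned to either gene or left out. PAX8-AS1 was at 5.19 and 3.25 CPM in shCtrl and 3.67 and 4.58 CPM in shPML, and so differed in direction between the experiments while PAX8 stayed level. WT1-AS had 43 and 13 counts in shCtrl and 14 and 8 in shPML, and its log2 fold change, -1.28, did not pass (adjusted p = 0.46 from edgeR). EMX2OS and LHX1-DT, the other neighbours with reads, did not pass either, and HNF4A-AS1 had 0 reads.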

How the data were processed

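RNA of RCC4 cells was measured in 4 libraries, 2 of shCtrl and 2 of shPML. According to the methods and the submitters' processing notes, the authors made stranded mRNA libraries, used Trimmomatic 0.39 on the single-end reads, STAR for alignment to GRCh38 and featureCounts 1.6.4 for counting per gene. The deposited values are raw counts with no normalization. The Gencode release and the strand setting are not given in the sources used here. Columns were matched to samples by name, and the column of each condition without a number was taken as replicate 1, since the other carries number 2. The record states that the labels of a pair of samples were once swapped and later corrected, and the corrected labels were used.

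Genes kept by filterByExpr (16516) were scaled by TMM and fitted by edgeR 4.0.16 in R 4.3.3, without a block. Its quasi-likelihood test was used, and p-values were adjusted after Benjamini and Hochberg. Calls needed a log2 fold change beyond 0.5 either way and an adjusted p under 0.05, as in the study's methods. Standard errors are the fold change over the root of the F statistic. CPM and RPKM used TMM-scaled library sizes and, for RPKM, the exon length of the count file. Ratios within an experiment carry exact binomial intervals of the counts (scipy 1.17.1), which cover counting error only. The scripts were tested on simulated data that kept the difference between experiments. There edgeR without the block recovered 0 of 99 genes changed by 1 on the log2 scale and 0 of 98 changed by 2. With the block it recovered 78 and 97, with 9 false calls. A gene not called by edgeR without the block can therefore not be taken as unchanged. Alternatives were DESeq2 1.42.0, the block, RLE, other filters and thresholds, and each library left out. No exact permutation test was run, since its smallest two-sided p for 2 libraries in each condition is 0.333.

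Replicate numbers were read as the 2 infection experiments of the methods. Deviations of the replicate 1 libraries from their group means had a correlation of 0.546 across genes, and the common dispersion was 0.0813 without and 0.0137 with the block, so the numbers were taken to pair the libraries.

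The members and lists were chosen with earlier results of these data known. Named genes are the members, PML, of each list the 3 genes with the highest mean RPKM among those expressed and up to 3 called genes with the largest change, the 3 genes most like each tested member, and genes that overlap a member. AMN, ANPEP, AQP9, KRT7, MIOX, PTPRO and the genes at the floor were named after their values were seen. Of 9 antisense or neighbouring transcripts listed, 5 were found in the count file by name. Promoters are from the RefSeq table for 8 of the 9 members. Some genes within this rule are not reported here, but still count in the totals of their lists.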

Additional observations from a re-analysis of the deposited data

Results flagged for a closer look

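PAX8-AS1, the antisense neighbour of PAX8, went in opposite directions in the 2 experiments, with a log2 ratio of shPML to shCtrl of -0.50 in replicate 1 and 0.49 in replicate 2, each beyond counting error. SPP1 did so with smaller ratios of -0.13 and 0.26. ANPEP had a log2 ratio of -2.58 in replicate 1, from 2 counts against 9, and of 7.27 in replicate 2, where shPML held the monocyte and macrophage reads. With 1 library of each condition in an experiment, these differences between experiments were not tested.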

How the results depend on the processing

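The calls across all genes depended on the fit. Without the block edgeR called 13 genes higher and 55 lower, at a smallest adjusted p of 0.0484. With the replicate block it called 1415 higher and 1735 lower, DESeq2 called 578 and 894 without the block and 1102 and 1384 with it, edgeR without a filter called 891 and 946, and edgeR with at least 10 counts in every library 53 and 144. RLE in place of TMM in edgeR gave 0 and 0, at a smallest adjusted p of 0.0501, just over the threshold, with 2967 genes at an unadjusted p under 0.05. Fits without 1 library, in which the lone library of a condition is assumed to vary like the other, gave from 0 to 187 genes higher and from 0 to 61 lower, and only the fit without shPML replicate 1 called any. The cause was not tested. PML was called with the replicate block (-0.70), in DESeq2 with it (-0.69) and in edgeR without a filter (-0.68), and WT1 with the replicate block in edgeR (-0.97). The block changed no other call of a member. Of the named genes called by edgeR with the block, WT1, MAF, SIX2, MIOX, SLC5A2 and SLC7A7 were not called by DESeq2 with it, at adjusted p from 0.0502 to 0.16, and TFCP2L1 had no adjusted p there. CUBN, which edgeR did not call, had none either. DESeq2 without the block called some named genes that edgeR without it did not. Among them were CD24, DPP4, GGT1, DAB2, SNX17, CLU, SLC2A1, SLC23A1 and PDZK1, at adjusted p from 0.00026 to 0.040. It did not call others, such as ITGB8 (adjusted p = 0.082) and PDGFRB (adjusted p = 0.095).

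Leaving out a library in the fit without the block let differences between libraries of the same condition into the fold change. It moved PAX2 between -0.39 and 0.85 and PAX8 between -0.25 and 0.24. Other named genes that changed sign in this way were DGCR2 (-0.23 to 0.25), EGFL7 (-0.39 to 0.83), EHD1 (-0.89 to 0.17), GIPC1 (-0.67 to 0.20), GPSM1 (-0.35 to 0.85), NPEPL1 (-0.22 to 0.26), NR2F6 (-0.43 to 0.87), PAX8-AS1 (-0.34 to 0.36), SALL1 (-0.049 to 0.19), SLC17A3 (-0.65 to 0.22), SLC7A7 (-0.40 to 3.36), SLC9A3R1 (-0.21 to 0.50), SPP1 (-0.32 to 0.48), TFAP2A (-0.040 to 1.20) and ITM2B (-0.27 to 0.23), which was also at -0.0039 with the replicate block. The number of members expressed was 3, and it was 4 at 0.5 CPM, where LHX1 joined, 2 at 1 RPKM, where WT1 left, and 3 without shPML replicate 2, an alternative chosen after seeing the data.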
